A study of Drosophila melanogaster with 8 samples.

Results

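The genes described here are 38 genes of DNA replication and S phase entry, followed in whole guts of adult female Drosophila melanogaster. They were chosen by function, from a list of names drawn up with earlier results of these data known, and matched to the identifiers of the deposited table of 17559 genes. All 38 were found, 32 by current symbol, 2 by a synonym and 4 by the authors' symbol for an identifier that has since been replaced. Of these, 37 had enough counts to be tested.

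There were 2 groups of 4 libraries, which the labels call biological repeats. LamDm0 guts carried UAS-LamDm0, a transgene for the fly's B-type lamin, a protein of the nuclear lamina. The labels place its expression in the absorptive enterocytes (abbreviated EC in the labels). Control guts, labelled wt, carried a UAS transgene for GFP instead. Both groups were raised at 18 °C, and females of 2 to 4 days were held at 29 °C for 2 days before RNA was taken from guts. The labels name no driver line and do not say how many guts were pooled. The samples are whole guts, so a gene's level cannot be assigned to enterocytes. Lam itself had 2701 to 4644 CPM (counts scaled to the normalised library total) in LamDm0 libraries, against 16.2 to 20.2 CPM in control libraries. Libraries held 19720070 to 36022790 counts.

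DNA is copied from origins bound by the origin recognition complex, on which Cdt1 (dup in flies) loads the MCM2-7 ring that becomes the replicative helicase. CDC45 and the GINS complex activate that helicase, polymerases extend the new strands on the PCNA clamp, RPA covers single-stranded DNA, and ribonucleotide reductase makes deoxynucleotides. Cyclin E with Cdk2 drives entry into S phase, and E2F transcription factors control many of these genes. In the adult fly midgut stem cells divide, and enteroblasts that become enterocytes copy their DNA in endocycles without dividing, so replication genes serve both kinds of cell.

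Replication genes were higher in LamDm0 guts in part of the set, and no member fell. Of the 37 tested, 14 rose (adjusted p under 0.05 by the quasi-likelihood test of edgeR, with Benjamini-Hochberg adjustment over 8794 genes). They were RnrL, RnrS, RPA1, RPA2, RPA3, Orc2, Mcm2, dpa, Mcm5, Mcm7, PCNA, RfC4, Sld5 and Psf3. That is 37.8% of the members tested, where 4.76% of all genes tested were called higher. By edgeR 0 members were lower, also at an unadjusted p under 0.05, by DESeq2 and by limma-voom, where 3.26% of all genes tested were called lower. The median log2 fold change was 0.88 over the members and 0.010 over all genes tested, and 34 of 37 members (91.9%) had a positive value, against 51.3% of all genes tested. In 18 members (48.6%) all 4 LamDm0 libraries lay above all 4 control libraries, as did 9.95% of all genes tested. In bulk samples, more cells that express a gene and more RNA per cell cannot be told apart.

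**Figure D1:**
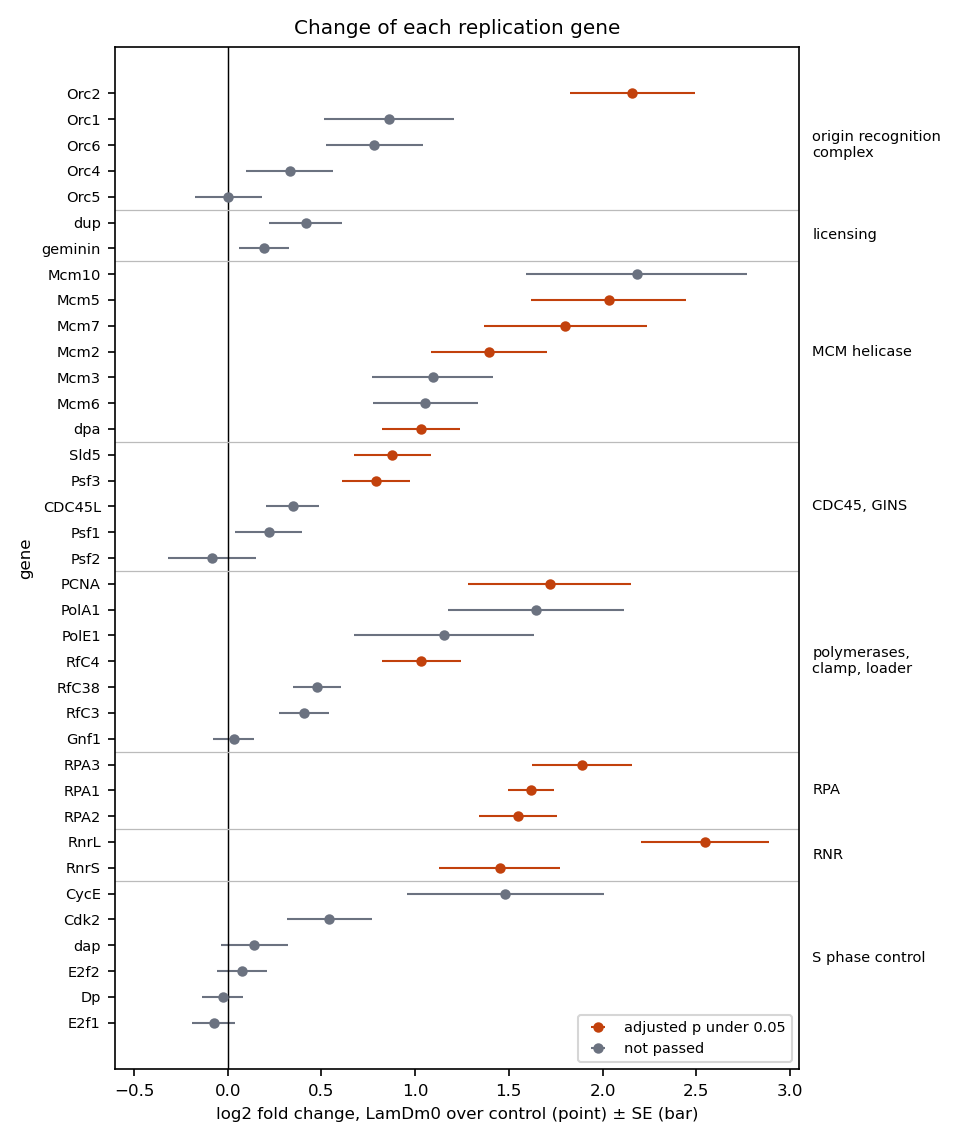
Log2 fold change of each of the 37 tested genes, LamDm0 over control, as points with SE as bars, grouped by role. Orange-red points passed an adjusted p of 0.05 and grey points did not. Ribonucleotide reductase and RPA passed in full, and E2f1, E2f2, Dp and Gnf1 lay near 0.

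Many calls ended when 1 library was left out, among the members and over all genes. Over all genes tested, 419 higher calls became 214, 248, 298 and 387 without control replicate 1, 2, 3 and 4. In these 4 fits the members' median log2 fold change was 0.80 to 1.00. DESeq2 called 20 members higher and limma-voom 15, each with all 14 among them. The count was 6, 5 and 6 without control replicate 1, 2 and 3, 8, 7 and 6 without LamDm0 replicate 1, 3 and 4, and 15 and 16 without LamDm0 replicate 2 and control replicate 4. RnrL, RPA1, RPA2, RPA3 and Orc2 kept their call without any 1 of the 8 libraries.

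Most members were scarce: the mean over libraries ran from 1.08 to 80.8 CPM with a median of 4.15 CPM. Of the 29 members with a mean under 10 CPM, 11 rose (37.9%), beside 5.82% of all genes tested in that range. Among the 8 with at least 10 CPM, 3 rose (37.5%), beside 4.14% of all genes tested in that range. Their medians differed, at 1.03 below 10 CPM and 0.13 above it on the log2 scale.

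In the origin recognition complex, Orc2 rose and the other measured subunits did not pass. Orc2 (FBgn0015270, 3R, 13964885 to 13967075, BDGP6.54) had 1.95, 1.57, 2.11 and 2.68 CPM in LamDm0 replicates 1 to 4, against 0.431, 0.458, 0.246 and 0.717 CPM in control replicates 1 to 4. The groups did not overlap, and Orc2 rose 4.47-fold (log2 fold change 2.16 ± 0.33, SE; adjusted p = 0.0066). Its call ended without LamDm0 replicates 3 and 4 together and with replicates summed in pairs. Orc6 also had no overlap, with 1.63 ± 0.275 CPM in LamDm0 guts and 0.95 ± 0.264 CPM in control guts (SD, n = 4 each), but did not pass in edgeR (adjusted p = 0.11). Orc1, the largest subunit, had 2.36 ± 0.595 CPM in LamDm0 guts and 1.30 ± 0.586 CPM in control guts and overlapped (adjusted p = 0.17 in edgeR). Orc4 and Orc5 had log2 fold changes of 0.33 ± 0.23 and 0.0024 ± 0.18 (SE).

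The remaining subunit gene, lat (Orc3), had 0 counts in all 8 libraries. Every exon base of lat lies in an exon of CG34315 on the same strand of the annotation used here, and CG34315 was also at 0 in all 8. A count of 0 allows up to 0.0682 to 0.153 CPM per library, for counting error only, and only if reads of this locus could be counted, which is not known. No level is therefore given for Orc3.

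For licensing, the MCM loader gene dup and its inhibitor geminin did not pass: by edgeR 0 of 2 were called, with 0 at an unadjusted p under 0.05 and 0 by DESeq2. The gene dup had 5.76, 4.95, 8.26 and 8.57 CPM in LamDm0 replicates 1 to 4, against 5.07, 4.99, 4.93 and 5.74 CPM in control replicates. LamDm0 replicates 1, 3 and 4 lay above all controls, replicate 1 only just, and replicate 2 within them. With LamDm0 replicates 1 and 2 left out, dup passed (log2 fold change 0.70, adjusted p = 0.024 in edgeR), and with replicates 3 and 4 left out its log2 fold change was 0.058 (adjusted p = 0.86). It passed in none of the 8 fits that left out 1 library. The level of geminin was 13.2 ± 0.942 CPM in LamDm0 guts and 11.5 ± 1.87 CPM in control guts (SD, n = 4 each).

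**Figure D2:**
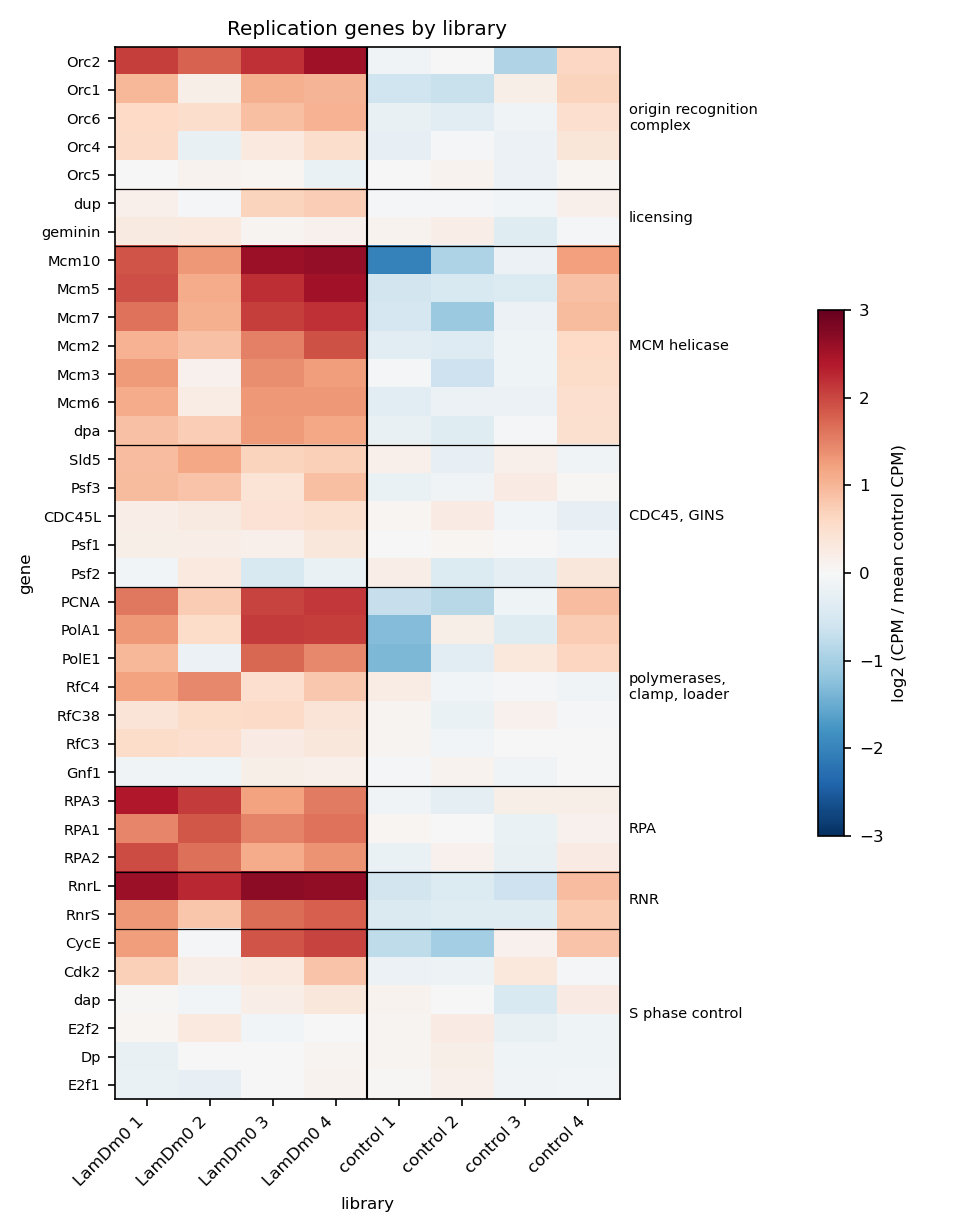
Level of each of the 37 tested genes in each library, as log2 of CPM over the gene's mean control CPM (red higher, blue lower). Rows are grouped by role and columns are the 4 LamDm0 and then the 4 control libraries. LamDm0 replicate 2 is the palest LamDm0 column for MCM genes, and control replicate 4 the reddest control column.

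All 7 genes of the MCM group had a log2 fold change above 1, and 4 passed. Mcm5 (3R, 10788524 to 10791150) had 3.74, 2.14, 4.60 and 5.64 CPM in LamDm0 replicates 1 to 4, against 0.67, 0.712, 0.739 and 1.82 CPM in control replicates. Mcm7 (3L, 8891596 to 8894310) had 4.81, 3.24, 6.57 and 7.03 CPM in LamDm0 replicates, against 1.1, 0.712, 1.38 and 3.01 CPM in control replicates. In both genes the groups did not overlap, with control replicate 4 nearest to LamDm0 replicate 2. Their rises were 4.09-fold (adjusted p = 0.021) and 3.49-fold (adjusted p = 0.039). Mcm2 (3R, 8264970 to 8267924) had 3.54, 3.19, 4.94 and 6.48 CPM in LamDm0 replicates, against 1.39, 1.32, 1.58 and 2.63 CPM in control replicates, a rise of 2.63-fold (adjusted p = 0.029). The gene dpa, which encodes Mcm4 (2R, 7496702 to 7500145), had 7.63, 6.90, 9.99 and 9.23 CPM in LamDm0 replicates, against 3.54, 3.21, 4.04 and 5.74 CPM in control replicates, a rise of 2.04-fold (adjusted p = 0.021).

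The other MCM genes had changes of similar size without passing in edgeR, and each of them passed by DESeq2. For Mcm3 the log2 value was 1.09 ± 0.32 (SE; adjusted p = 0.077 in edgeR) and for Mcm6 1.05 ± 0.28 (adjusted p = 0.053), and in both LamDm0 replicate 2 lay below control replicate 4. Mcm10, which acts in helicase activation and is not a ring subunit, had 1.43, 0.952, 2.28 and 2.41 CPM in LamDm0 replicates, against 0.0957, 0.204, 0.345 and 0.908 CPM in control replicates. Its groups did not overlap, but it did not pass in edgeR (log2 fold change 2.18 ± 0.59, adjusted p = 0.056). Of its exon bases, 13% face exons of Ret, which had 220 counts beside 260 for Mcm10. The calls of Mcm2, dpa and Mcm5 ended without control replicate 1, 2 or 3 or LamDm0 replicate 3 or 4 (adjusted p up to 0.088, 0.066 and 0.067), and that of Mcm7 also without LamDm0 replicate 1 (up to 0.11). Of the exon bases of Mcm7, 81.7% face exons of the antisense gene asRNA:CR45871, which had 2 counts in all 8 libraries together, beside 816 for Mcm7.

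Per length the 6 ring subunits lay closer in LamDm0 guts by the ratio of highest to lowest level, but not by the difference in level. Their mean levels in RPKM (CPM per kilobase of exon) ran from 1.57 (Mcm2) to 2.75 (dpa) in LamDm0 guts and from 0.402 (Mcm5) to 1.35 (dpa) in control guts. The spread between libraries was large against these levels, for example 1.64 ± 0.604 RPKM for Mcm5 in LamDm0 guts and 0.402 ± 0.227 RPKM in control guts (SD, n = 4 each), and the difference in spread was not tested.

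Among the partners that turn the MCM ring into the active helicase, 2 GINS subunits rose by less than 2-fold. Sld5 (3R, 26055657 to 26056547) had 2.54, 3.00, 2.11 and 2.18 CPM in LamDm0 replicates, against 1.48, 1.12, 1.48 and 1.24 CPM in control replicates (1.84-fold, adjusted p = 0.035). Psf3 (X, 10383353 to 10385861) had 5.01, 4.66, 3.46 and 4.84 CPM in LamDm0 replicates, against 2.25, 2.39, 3.06 and 2.68 CPM in control replicates (1.73-fold, adjusted p = 0.033). Neither pair of groups overlapped. Sld5 lost its call whichever of the 8 libraries was left out (adjusted p up to 0.094), and Psf3 lost it without control replicate 1, 2 or 4 or LamDm0 replicate 1, 2 or 4 (up to 0.096). The value of Psf3 is uncertain, since 34.9% of its exon bases face exons of CG17841, which had 37985 counts beside 749 for Psf3, and the strand setting of the counting is not known.

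Psf1, Psf2 and CDC45L (Cdc45) did not pass. Psf1 had 1.59 ± 0.0929 CPM in LamDm0 guts and 1.37 ± 0.0569 CPM in control guts (SD, n = 4 each; adjusted p = 0.51 in edgeR). Psf2 had a log2 fold change of -0.084 ± 0.23 and CDC45L of 0.35 ± 0.14 (SE). The 4 GINS subunits thus differed in their values within a complex, at 1.84-fold, 1.73-fold, 1.16-fold and 0.943-fold for Sld5, Psf3, Psf1 and Psf2, without a test of the difference between subunits.

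At the synthesis step the sliding clamp gene PCNA and the clamp loader subunit gene RfC4 rose. PCNA (2R, 20261754 to 20262883) had 8.70, 4.90, 12.0 and 12.7 CPM in LamDm0 replicates, against 1.82, 1.63, 2.66 and 5.54 CPM in control replicates (3.29-fold, adjusted p = 0.046). It was the 1 called member whose groups overlapped, because control replicate 4 lay above LamDm0 replicate 2. Its call ended without control replicate 1, 2 or 3 or LamDm0 replicate 1, 3 or 4 (adjusted p up to 0.12). RfC4 (3L, 4134860 to 4136038) had 9.10, 10.8, 5.64 and 6.87 CPM in LamDm0 replicates, against 4.59, 3.72, 3.79 and 3.68 CPM in control replicates (2.05-fold, adjusted p = 0.022; up to 0.063 without control replicate 2 or 3 or LamDm0 replicate 1). Here LamDm0 replicates 1 and 2 were the highest, the reverse of PCNA.

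The other clamp loader genes and the polymerases did not pass in edgeR. RfC3 and RfC38, which encode small subunits, had all LamDm0 libraries above all controls, with log2 fold changes of 0.41 ± 0.13 and 0.48 ± 0.13 (SE; adjusted p = 0.11 and 0.058). The value of RfC38 is uncertain for the same reason as that of Psf3: 25.2% of its exon bases face exons of Nup160, with 3744 counts beside 1028 for RfC38. In raw counts, not scaled for library size, Nup160 had 486 to 908 in LamDm0 libraries, against 287 to 337 in control libraries. The 908 came from LamDm0 replicate 4, the library with the most counts (36022790), so these ranges do not compare levels. Gnf1, the large subunit, had 11.4 ± 1.28 CPM in LamDm0 guts and 11.1 ± 0.685 CPM in control guts (SD, n = 4 each; adjusted p = 0.89). PolA1, the catalytic subunit of the polymerase that starts new strands, had 4.69, 2.76, 8.16 and 8.03 CPM in LamDm0 replicates, against 0.766, 2.14, 1.48 and 3.20 CPM in control replicates (log2 fold change 1.64 ± 0.47, adjusted p = 0.068). PolE1, the catalytic subunit of the leading strand polymerase, had 4.07 ± 1.90 CPM in LamDm0 guts and 1.83 ± 0.936 CPM in control guts (SD, n = 4 each; adjusted p = 0.18 in edgeR).

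Replication protein A rose in all of its 3 subunits. RPA1, the large subunit (3R, 8262120 to 8264451), had 73.5, 96.8, 75.5 and 83.2 CPM in LamDm0 replicates 1 to 4, against 27.8, 27.0, 23.3 and 29.1 CPM in control replicates 1 to 4. Within each group its libraries lay close together, and the rise was 3.07-fold (log2 fold change 1.62 ± 0.12, SE; adjusted p = 3.0e-04). RPA2, the middle subunit (2L, 20924975 to 20926147), had 13.7, 11.0, 7.64 and 8.96 CPM in LamDm0 replicates, against 3.06, 3.87, 3.01 and 4.16 CPM in control replicates (2.93-fold, adjusted p = 0.0038). RPA3, the small subunit (X, 11615097 to 11615840), had 20.1, 16.3, 8.68 and 11.1 CPM in LamDm0 replicates, against 3.49, 3.10, 4.29 and 4.25 CPM in control replicates (3.70-fold, adjusted p = 0.0047). RPA2 and RPA3 were highest in LamDm0 replicates 1 and 2. Among the alternatives in which they were tested, their calls ended only with replicates summed in pairs, where 2 sums stand against 2 (adjusted p = 0.077 and 0.081). Per length RPA1 was the most abundant subunit in both groups, at 38.5 ± 4.94 RPKM in LamDm0 guts and 12.5 ± 1.16 RPKM in control guts.

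Ribonucleotide reductase rose in both subunits, and its large subunit gene had the largest fold change among the members tested. RnrL (2L, 10325026 to 10327943) had 21.7, 17.7, 23.6 and 23.4 CPM in LamDm0 replicates, against 2.54, 2.80, 2.41 and 7.03 CPM in control replicates. All LamDm0 libraries lay far above the highest control, and the rise was 5.84-fold (log2 fold change 2.55 ± 0.34, SE; adjusted p = 0.0038). RnrS, the small subunit (2R, 11983145 to 11985393), had 32.7, 23.7, 42.4 and 45.9 CPM in LamDm0 replicates, against 9.76, 10.2, 10.2 and 22.7 CPM in control replicates (2.74-fold, adjusted p = 0.030). RnrS did not overlap either, by a margin of less than 1 CPM between LamDm0 replicate 2 and control replicate 4. Its call ended without control replicate 1, 2 or 3 or LamDm0 replicate 1, 3 or 4 (adjusted p up to 0.086). Per length, the ratio of RnrL to RnrS was 0.410, 0.461, 0.344 and 0.315 in LamDm0 replicates 1 to 4, against 0.161, 0.169, 0.146 and 0.191 in control replicates. That ratio, chosen after its values were seen, was higher in every LamDm0 library than in any control.

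**Figure D3:**
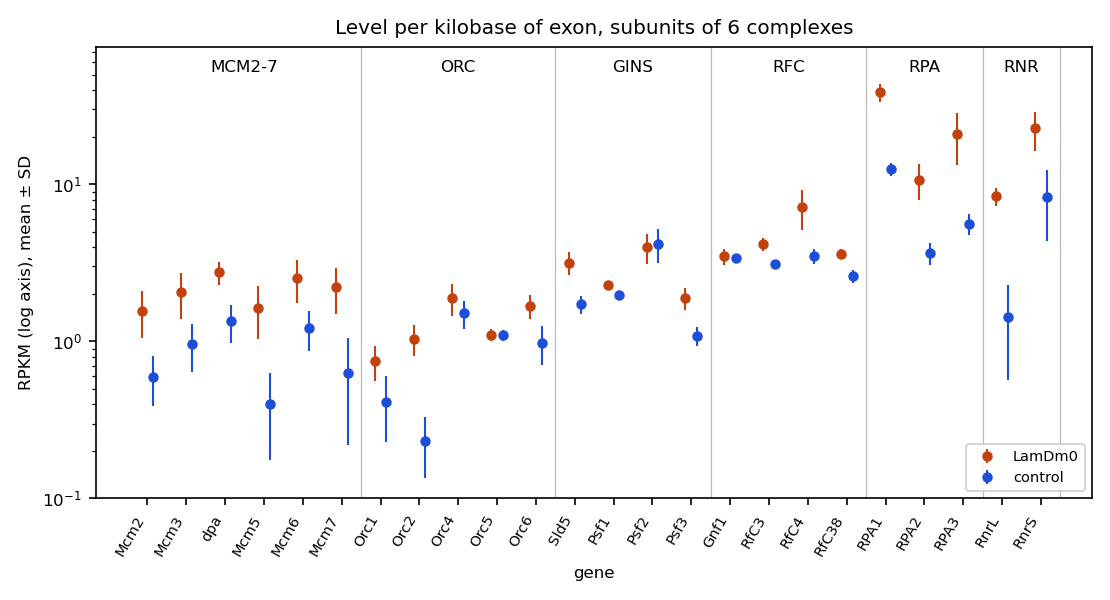
Mean level per kilobase of exon (RPKM, log axis, bars are SD over 4 libraries) for subunits of 6 complexes in LamDm0 guts (orange-red, left of each pair) and control guts (blue). ORC is the origin recognition complex, RFC the clamp loader and RNR ribonucleotide reductase. RPA1 stands at 38.5 in LamDm0 guts and 12.5 in control guts, and RnrL at 8.38 in LamDm0 guts and 1.43 in control guts.

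The regulators of S phase entry did not pass. By edgeR 0 of 6 were called, with 2 at an unadjusted p under 0.05 (CycE and Cdk2), 1 call by DESeq2 (CycE) and 0 by limma-voom. Cyclin E (CycE) had 2.70, 1.09, 4.18 and 4.59 CPM in LamDm0 replicates, against 0.67, 0.56, 1.23 and 2.06 CPM in control replicates (log2 fold change 1.48 ± 0.52, SE; adjusted p = 0.13 in edgeR). LamDm0 replicate 2 lay inside the control range and the other 3 above it. Its partner kinase Cdk2 had 2.58, 1.81, 1.94 and 2.84 CPM in LamDm0 replicates, against 1.39, 1.42, 1.97 and 1.53 CPM in control replicates. The groups overlapped for Cdk2. Of the exon bases of Cdk2, 43.9% face exons of CG17267, which had 0 counts, beside 413 for Cdk2. For E2f2, 19.9% of exon bases face exons of Mpp6, which had 868 counts beside 2096 for E2f2. The Cdk2 inhibitor dap had 4.88 ± 0.635 CPM in LamDm0 guts and 4.43 ± 0.850 CPM in control guts (SD, n = 4 each). The activator E2f1 had 78.7 ± 9.16 CPM in LamDm0 guts and 83.0 ± 6.87 CPM in control guts (log2 fold change -0.076 ± 0.11), its partner Dp had a log2 fold change of -0.028 ± 0.11, and the repressor E2f2 one of 0.075 ± 0.13 (adjusted p = 0.73, 0.91 and 0.78 in edgeR). Per length Dp and E2f1 were the most abundant of the 6 regulators, at 15.02 ± 1.26 and 12.2 ± 1.42 RPKM in LamDm0 guts and 15.3 ± 1.66 and 12.9 ± 1.07 RPKM in control guts (SD, n = 4 each).

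Some members neighbour each other in the genome. RPA1 and Mcm2 are transcribed away from each other on 3R with 518 bp between the annotated genes, and rose 3.07-fold and 2.63-fold. Per length RPA1 stood 28.2, 41.2, 20.7 and 17.4 times above Mcm2 in LamDm0 replicates 1 to 4, against 27.2, 27.7, 20.1 and 15.03 times in control replicates, so this ratio overlapped between groups. PolA1 lies 5690 bp from E2f1 on the same strand, with log2 fold changes of 1.64 for PolA1 and -0.076 for E2f1.

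Within groups the members did not all follow the same libraries. Of the 37 tested, 22 (59.5%) had their highest control value in replicate 4, where 24.5% of all genes tested had theirs, and 22 (59.5%) had their lowest LamDm0 value in replicate 2, beside 25.5% of all genes tested. MCM2-7, ribonucleotide reductase, PCNA, CycE and the polymerases were among them, while RPA1 had its highest LamDm0 value in replicate 2. Summed over the 6 ring subunits, MCM2-7 had 33.5, 22.3, 41.5 and 43.1 CPM in LamDm0 replicates 1 to 4, against 12.0, 10.7, 13.2 and 21.9 CPM in control replicates 1 to 4. The 3 RPA genes summed to 107.3, 124.1, 91.8 and 103.3 CPM in LamDm0 replicates, against 34.3, 33.9, 30.6 and 37.5 CPM in control replicates.

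The same libraries stood apart in markers of stem cells and enteroblasts. The 10 markers (esg, Dl, Su(H), klu, Sox21a, Sox100B, spdo, E(spl)mbeta-HLH, zfh2 and upd3) all had counts in all libraries. They summed to 74.9, 53.2, 120.0 and 122.9 CPM in LamDm0 replicates, against 71.9, 74.6, 71.9 and 142.2 CPM in control replicates, so LamDm0 replicate 2 was lowest and control replicate 4 highest. High sums in control replicate 4 were not particular to these markers. Control replicate 4 also had the highest control sums of enterocyte markers (50220 CPM, others 35950 to 39340) and visceral muscle markers (1988 CPM, others 971 to 1695). Its enteroendocrine sum was not the highest (340.5 CPM, replicate 3 at 349.5). LamDm0 replicate 2 had the highest LamDm0 sum of enterocyte markers, 46240 CPM. By edgeR 0 of the 10 markers were called, with 1 at an unadjusted p under 0.05 (upd3, higher) and 0 by DESeq2. Per unit of the stem cell and enteroblast marker sum, MCM2-7 stood at 0.447, 0.420, 0.346 and 0.351 in LamDm0 replicates, against 0.167, 0.143, 0.183 and 0.154 in control replicates. This ratio, chosen after the values were seen, averaged 0.391 ± 0.0503 in LamDm0 guts and 0.162 ± 0.0171 in control guts (SD, n = 4 each), and its groups did not overlap. Without upd3 in the sum the means were 0.415 in LamDm0 guts and 0.166 in control guts, and over esg alone 1.89 in LamDm0 guts and 0.654 in control guts, again without overlap. For ribonucleotide reductase the ratio to the full marker sum was 0.654 ± 0.115 in LamDm0 guts and 0.183 ± 0.0177 in control guts, and for PCNA 0.103 ± 0.0101 in LamDm0 guts and 0.0308 ± 0.00849 in control guts, also without overlap. For RPA it was 1.34 ± 0.725 in LamDm0 guts and 0.405 ± 0.0967 in control guts, a wider spread between LamDm0 libraries. For the 4 GINS genes the ratio overlapped between groups, at 0.151 ± 0.0804 in LamDm0 guts and 0.106 ± 0.0272 in control guts. The marker sum itself averaged 92.7 ± 34.3 CPM in LamDm0 guts and 90.1 ± 34.7 CPM in control guts. Before division the MCM2-7, ribonucleotide reductase and RPA sums already did not overlap, while PCNA did. These ratios are therefore descriptions only, and the part of stem cell and enteroblast number in the members' values was not tested.

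**Figure D4:**
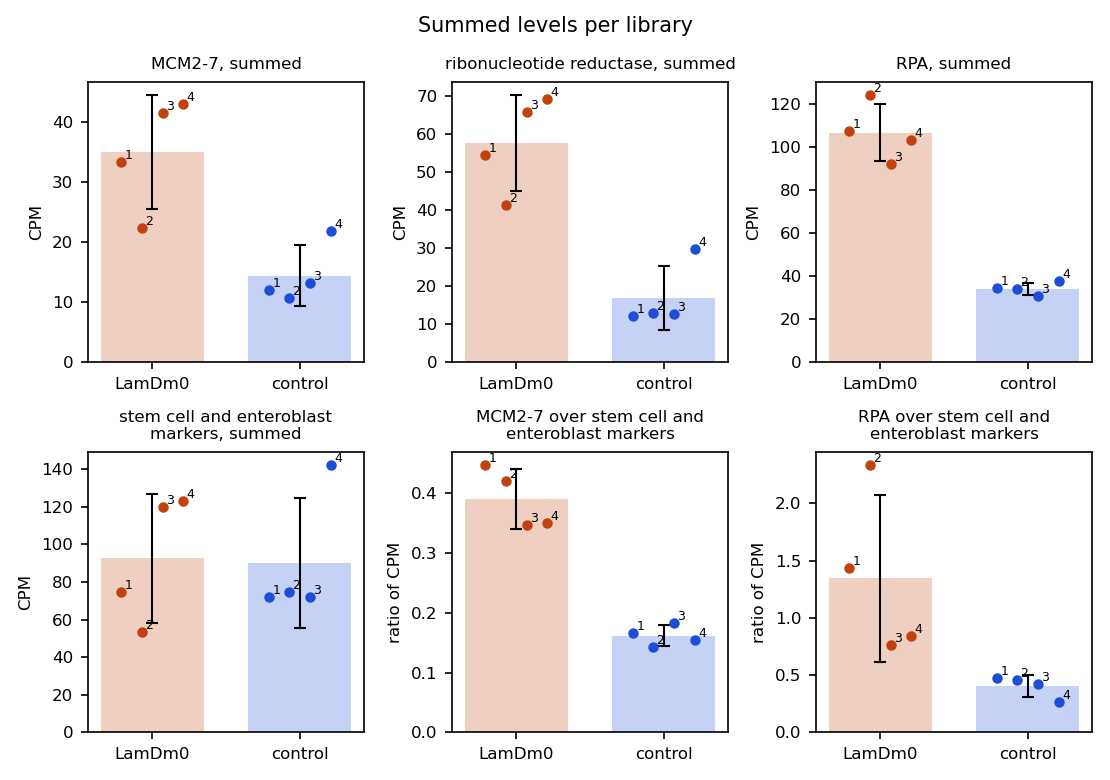
Summed CPM per library of MCM2-7, ribonucleotide reductase, RPA and the 10 stem cell and enteroblast markers, and MCM2-7 and RPA divided by the marker sum. Points are libraries with their replicate number, bars means and error bars SD (n = 4 each). The marker sums overlap between groups, and MCM2-7 over the markers runs from 0.346 to 0.447 in LamDm0 and from 0.143 to 0.183 in control libraries.

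Part of the other replication genes rose as well. From a list of 56 further genes of replication, S phase entry and chromatin assembly in the table, 54 were tested, 13 were higher (24.1%), 1 was lower and 40 did not pass, beside 4.76% higher and 3.26% lower over all genes tested. Their median log2 fold change was 0.54, beside 0.010 over all genes tested. With single libraries left out, 3 (without control replicate 1 or LamDm0 replicate 3 or 4) to 18 (without control replicate 4) were higher. The smallest p belonged to rec, which encodes an MCM-family helicase known from meiotic recombination in female flies, and which fell. It had 0.755, 0.286, 0.519 and 0.546 CPM in LamDm0 replicates, against 2.39, 3.16, 3.25 and 3.15 CPM in control replicates (log2 fold change -2.48 ± 0.29, SE; adjusted p = 0.0020). The retinoblastoma family gene Rbf2 rose 4.14-fold, to 1.48 ± 0.368 CPM in LamDm0 guts against 0.356 ± 0.0902 CPM in control guts (adjusted p = 0.0057). The deoxynucleoside kinase dnk and the flap endonuclease Fen1 rose 2.03-fold and 1.78-fold (adjusted p = 0.023 and 0.026), and Top2 and His2Av less than that, at 1.68-fold and 1.64-fold (adjusted p = 0.0034 and 0.0035).

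A list of 40 genes of mitosis, which endocycling cells do not enter, gave 6 higher and 1 lower among 36 tested, or 16.7% higher, beside 4.76% higher and 3.26% lower over all genes tested. The median log2 fold change was 0.90, beside 0.010 over all genes tested. By DESeq2 12 were higher. By edgeR 16 were higher without control replicate 4, 5 without LamDm0 replicate 1, and 3 when each of the other libraries was left out in turn. The centrosomal gene cnn rose 2.88-fold (16.4 ± 2.69 CPM in LamDm0 guts, 5.70 ± 1.40 CPM in control guts; adjusted p = 0.0033). The kinetochore gene Nuf2 and the central spindle gene feo rose 4.94-fold and 4.05-fold (adjusted p = 0.0080 and 0.011), both with under 1 CPM in control guts. Bub3 of the spindle checkpoint and the spindle gene mars rose 1.35-fold and 1.73-fold, and the kinetochore gene Mis12 fell 1.99-fold (adjusted p = 0.029, 0.038 and 0.027).

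Markers of tissues outside the epithelium were also compared. Ovary and germline genes summed to 24.95 to 27.7 CPM in LamDm0 libraries and 14.9 to 19.0 CPM in control libraries over 21 genes. Of these, 16 were too low to test, 4 of them at 0 in all libraries (Cp16, Vm32E, dec-1 and plu), and osk, nos and bcd had at most 0.0346 CPM on average in either group. Among those too low to test, gnu did not overlap. It had 0.437, 0.666, 0.173 and 0.318 CPM in LamDm0 replicates, against 0, 0, 0.0493 and 0 CPM in control replicates. Of the 5 tested, exu and Cp18 were higher (16.1 ± 2.05 CPM in LamDm0 guts and 9.14 ± 0.790 CPM in control guts for exu). Cp18 was scarce, at 0.606 ± 0.210 CPM in LamDm0 guts and 0.136 ± 0.0646 CPM in control guts, the latter near what a count of 0 allows. Fat body genes, among them the yolk protein genes that ovarian follicle cells also express, summed to 907.5 to 1870 CPM in LamDm0 libraries and 17.4 to 783.9 CPM in control libraries over 6 genes. By edgeR 0 of the 4 tested passed, with 1 at an unadjusted p under 0.05 and 1 by DESeq2. The median log2 fold change of these 4 was 1.55. In 3 of them (apolpp, Yp2 and Yp3) all LamDm0 libraries lay above all controls, as did 9.95% of all genes tested. The part of either tissue in the members' values was not tested. Enterocyte markers were 2 lower of 10 (Amy-p and Alp4), and enteroendocrine, visceral muscle, haemocyte and tubule markers had 0 calls by edgeR among 10, 7, 2 and 2 tested. At an unadjusted p under 0.05 these had 2, 0, 0 and 0, and by DESeq2 1, 0, 0 and 0. Among the haemocyte genes too low to test, NimC1 did not overlap, while He and eater did. NimC1 had 1.35, 0.666, 0.311 and 0.205 CPM in LamDm0 replicates, against 0.191, 0, 0.0493 and 0 CPM in control replicates.

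The authors' deposited table gave a fold change for 37 members, of which 20 were higher at an adjusted p under 0.05, beside 6.39% of all genes with an adjusted p there. Those 20 held all 14 members called here. The authors' deposited table gave log2 fold changes of 2.15 for RnrL and 1.55 for RPA1, and of 1.42 for Mcm10 with an adjusted p of 0.0050.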

How the data were processed

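Poly(A) RNA from 8 whole-gut samples was sequenced with a kit that marks strand, per the labels' protocols. The authors deposited raw counts per gene, and a table of their comparison with a mean normalised signal (baseMean), log2 fold changes and p-values, raw and adjusted. Per the submitters' processing notes the build was BDGP6, and TopHat2 2.0.13, HTSeq 0.6.0 and DESeq2 1.10.1 are named, their roles not stated. Strand setting and annotation release are likewise not given in the sources used. Multi-mapping and overlapping loci can therefore be undercounted.

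Genes passing filterByExpr (8794) were tested with edgeR 4.0.16 in R 4.3.3 (TMM scaling, quasi-likelihood F-test, two-sided, no block), with Benjamini-Hochberg adjustment and a threshold of 0.05. SE is the size of the log2 fold change over the root of F. CPM use TMM library sizes, and RPKM divide CPM by union exon length from the Ensembl annotation of BDGP6.54, which also gave coordinates. Alternatives used DESeq2 1.42.0, limma 3.58.1, other scaling, filters and library subsets. The code was tested on simulated data. Named genes are all members, up to 6 called genes of each further list by smallest p, Lam, and the tissue markers. Members and lists were chosen with earlier results of these data known. Of the further lists, 5 names matched no gene. Promoter sequences were not analysed here. No 2 libraries of a group agreed within sampling noise (chi-square per degree of freedom 26.8 to 382). In both groups replicates 1 and 2, and replicates 3 and 4, lay closer by this measure than libraries across these pairs. The values were 26.8 and 84.3 in control guts, beside 181 to 274 across pairs. In LamDm0 guts they were 208 and 45.6, beside 228 to 382. Whether libraries of a pair are independent is not known, and if not, the p-values could be too small. Summing pairs left 2 sums against 2, where 2 members were called higher. No per-sample column was left unused.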

Additional observations from a re-analysis of the deposited data

Results flagged for a closer look

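In 6 of the 74 groups of 4 libraries examined over the 37 members, 1 library lay far from the other 3 (gap to the nearest over the group's range, above Dixon's critical value for 4 samples). Chance gives about 1 in 20 such groups. In 4 of the 6 the library was control replicate 4, the highest: Mcm5 at 1.82 CPM (others 0.67 to 0.739), Mcm6 at 4.83 CPM (2.73 to 3.01), RnrL at 7.03 CPM (2.41 to 2.80) and RnrS at 22.7 CPM (9.76 to 10.2). That library also had the highest sum of stem cell and enteroblast markers, 142.2 CPM. Among control libraries it also had the highest sums of enterocyte markers (50220 CPM, mostly alphaTry, betaTry and Jon65Aiii) and visceral muscle markers (1988 CPM). The part of any of these cells in its values was not tested. Orc1 had its low value in LamDm0 replicate 2, at 1.48 CPM beside 2.58 to 2.73 CPM. RfC4 had its high value in control replicate 1, at 4.59 CPM beside 3.68 to 3.79 CPM.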

How the results depend on the processing

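No member was called lower under any of the 18 alternatives, and the log2 fold changes of the 14 called members were positive in every alternative that tested them. That was 18 alternatives for RnrL, RnrS and RPA1 and 17 for the other 11, whose means were under 10 CPM. The count of members called higher, 14, was 5 to 16 with single libraries left out, 5 without LamDm0 replicates 3 and 4, 3 with a mean of at least 10 CPM (8 members tested, median 0.16) and 2 with replicates summed in pairs (RPA1 and RnrL). Their median was 0.80 to 1.00 with single libraries left out. For the further replication genes the count of higher calls, 13, ranged from 3 to 18 without 1 library, and was 22 by DESeq2, 8 with no filter, 3 at 10 CPM, 3 without LamDm0 replicates 3 and 4 and 0 with summed pairs. For mitosis genes the 6 ranged from 3 to 16, and were 12 by DESeq2, 3 with no filter, 2 at 10 CPM, 1 without LamDm0 replicates 3 and 4 and 1 with summed pairs. Over all genes, 419 higher and 287 lower ranged from 214 to 387 and from 132 to 267. They were 668 and 636 by DESeq2, 273 and 188 at 10 CPM and 36 and 36 with summed pairs, and lower calls were 137 without LamDm0 replicates 3 and 4. The cause was not tested, except that fewer genes or samples entered by construction in the filtered, reduced and summed sets.

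Over all genes tested, deviations of same-numbered libraries correlated at -0.368 to -0.0275. Of the 4 LamDm0 libraries, 0 correlated best with their own number. Some members, among them PCNA, Mcm7 and CycE, had the same order of replicates in both groups, and others, such as RPA1, did not. The labels give the replicate numbers no meaning, so whether they pair the samples is not known. With the replicate block, 12 members were called higher (11 of the 14, and CycE), with 6 further replication genes, 3 mitosis genes, 211 higher and 121 lower genes overall.

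Uncalled members near 0 changed sign. Orc5 was at -0.017 with DESeq2's size factors, -0.0097 without mitochondrial genes and Lam in scaling, -0.026 by DESeq2, -0.027 by limma-voom, -0.058 without LamDm0 replicates 1 and 2, -0.011 with summed pairs and -0.055 to 0.065 without 1 library. Without 1 library Dp ranged from -0.072 to 0.030, Psf2 from -0.23 to 0.054 and Gnf1 from -0.020 to 0.082. Without LamDm0 replicates 1 and 2, E2f1 was at 0.058, E2f2 at -0.034 and Dp at 0.041. Without LamDm0 replicates 3 and 4, Psf2 was at 0.13, Gnf1 at -0.11 and dap at -0.0084. Of the 37 members tested, 29 had a mean under 10 CPM, where few counts limit precision.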
